A study of Cavia porcellus with 12 samples.

Results

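Aromatic amino acid catabolism is represented here by 9 liver enzymes, *TAT*, *HPD*, *HGD* and *FAH* of tyrosine breakdown and *TDO2*, *KMO*, *KYNU*, *AADAT* and *HAAO* of the tryptophan-kynurenine route. They were chosen by name, and all 9 were among the 11896 human orthologue symbols of the deposited expression table. Each of the 9 stood on a count row of its own, so none shared its reads with another symbol. The question asked of them was how their expression differed between guinea pigs with NASH (nonalcoholic steatohepatitis, fatty liver with inflammation and hepatocyte injury) and controls. RNA was sequenced from the left lateral liver lobe of 6 controls kept on chow and 6 animals with NASH kept on a high-fat diet, both for 25 weeks. All were female Dunkin Hartley guinea pigs, the NASH animals had been picked for bridging fibrosis and the controls drawn at random from animals with neither NASH nor fibrosis, and every animal was a sample of its own. Diet and disease state coincide in these groups, so their contributions cannot be told apart.

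Tyrosine is degraded by transamination (*TAT*), oxidation of the resulting keto acid to homogentisate (*HPD*), ring opening (*HGD*), isomerisation (*GSTZ1*) and a last hydrolysis to fumarate and acetoacetate (*FAH*). Tryptophan is opened to formylkynurenine by *TDO2* in hepatocytes, or by *IDO1* in immune and other cells, and then freed to kynurenine by *AFMID*. Kynurenine is hydroxylated by *KMO*, cleaved by *KYNU* or converted to kynurenic acid by *AADAT*, and *HAAO* opens the ring of the product on the branch that ends either in full oxidation or in NAD. In a healthy liver these enzymes are abundant and most are typical of hepatocytes.

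Between 16980274 and 28636467 reads were counted per control and between 23704607 and 33091460 per NASH animal. Values are in CPM, the count scaled to a common library size, after TMM scaling, a correction for library composition whose factors were 0.804 to 0.875 in controls and 1.12 to 1.24 in NASH. Counts of the 9 enzymes were high, from 1601 for *KYNU* in 1 NASH animal to 84414 for *TAT* in 1 control, so counting error was small beside the differences between animals. Of the hepatocyte markers, 7 of 8 were in the table, 6 fell in NASH and none rose, and none lacked counts in any animal. Their summed level was 99759 to 120500.0 CPM in controls and 42226 to 64622 CPM in NASH. All 5 cholangiocyte markers found and 6 of 8 stellate cell markers rose, while *LRAT* of the stellate list fell by 0.57 on the log2 scale, and the summed levels went from between 73.2 and 115 to between 302 and 539 CPM and from between 313 and 391 to between 1002 and 2322 CPM. Of the macrophage markers, 2 of 7 rose and 1 fell, and the summed levels of the groups overlapped at 388 to 626 CPM in controls and 579 to 772 CPM in NASH. Of the T cell markers, 1 of 6 rose and 1 fell (56.6 to 111 CPM in controls and 33.1 to 61.2 CPM in NASH). All 3 erythroid markers found rose, from a summed level between 57.0 and 171 CPM to between 426 and 4524 CPM. Livers of both groups had not been perfused, and the part of this in the rise was not tested. By the edgeR test used below, 27.9% of all genes were higher in NASH and 26.0% lower. *ALB*, *CD3E* and *HBA1* weighed most in the hepatocyte, T cell and erythroid sums, and *HBA1* shared its count row with another symbol. In bulk tissue, fewer hepatocytes and less RNA of an enzyme per hepatocyte cannot be told apart, and the part of cell composition in the results was not tested. The comparison with hepatocyte markers given further on does not test it, because the markers are themselves RNAs whose changes in NASH differed widely.

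All 9 enzymes were lower in NASH, by 1.72-fold for *AADAT* to 2.80-fold for *FAH*, and in all 9 every NASH animal was below every control. The median log2 fold change of the set was −1.29, against 0.0018 over all genes tested. By edgeR's quasi-likelihood test with Benjamini-Hochberg adjustment over all 11896 genes, the 9 enzymes passed the threshold of 0.05 with adjusted p-values between 1.84e-07 and 0.000233. In the same test 53.9% of all genes were called, 26.0% lower in NASH and 27.9% higher. NASH animals lay below every control in 15.3% of all genes and above every control in 18.4%. A share of 1.94% of all genes had a lower log2 fold change than *FAH*, and 8.59% had a lower one than *AADAT*. Together the 9 enzymes took 0.783 ± 0.065% of all counts in controls against 0.498 ± 0.080% in NASH (mean ± SD of 6), and these shares did not overlap (two-sided exact permutation p = 0.00216, which no split of 6 against 6 can undercut). *TAT* and *HPD*, with control means of 3198 and 2925 CPM, weighed most in this share, ahead of *HGD* at 883 CPM. On the deposited regularised log (rlog) scale, which shrinks differences, the enzymes were lower by between 0.50 and 0.96.

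**Figure D1:**
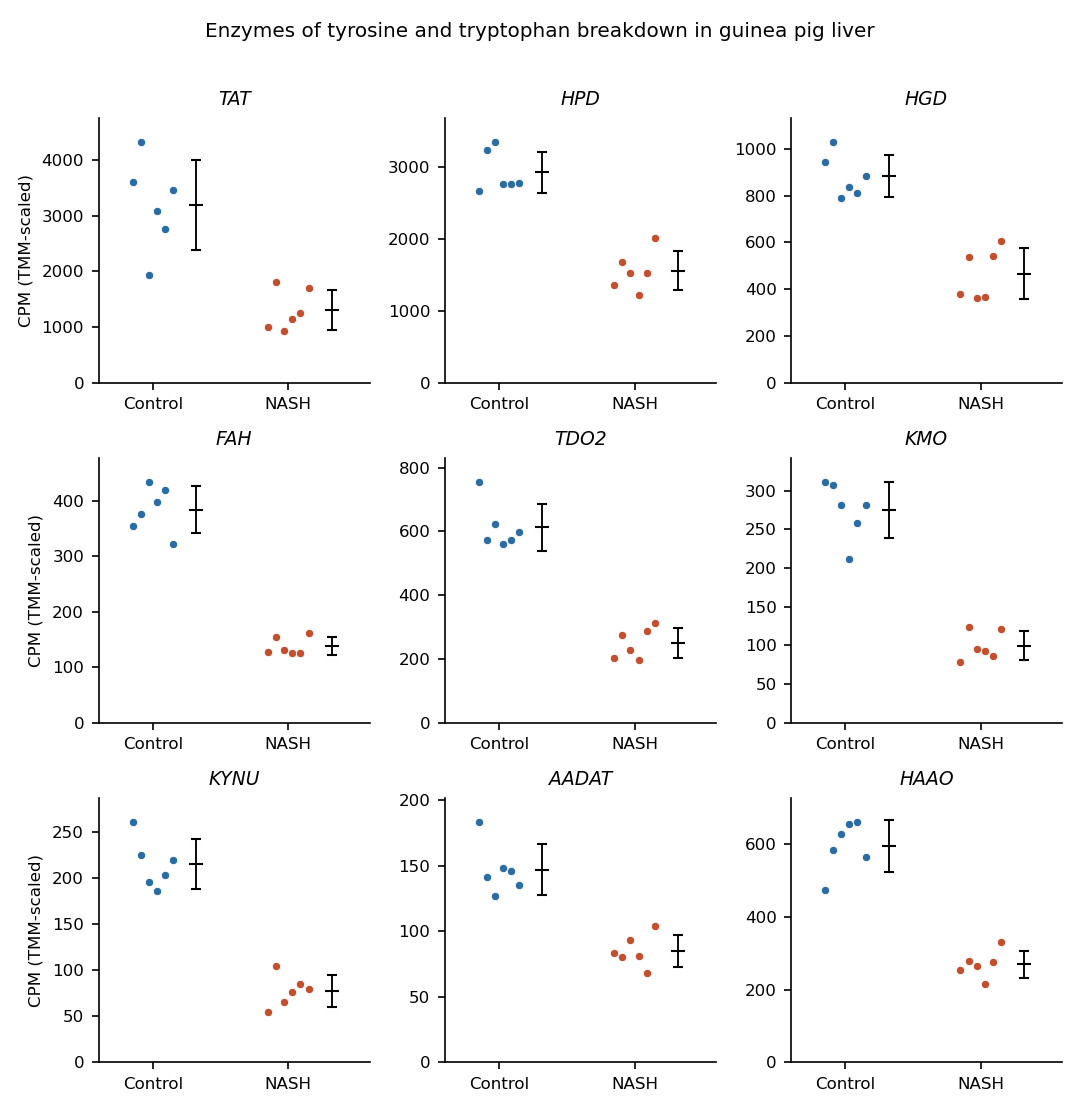
TMM-scaled CPM of each of the 9 enzymes in the 6 controls (blue) and 6 NASH animals (orange), on linear axes from 0; each point is an animal and the bars beside the points are mean ± SD. In every panel all NASH animals lie below all controls. The ratio of the lowest control to the highest NASH animal is smallest in TAT (1.08, from 1937 and 1801 CPM).

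*TAT*, tyrosine aminotransferase, is the regulated entry step of tyrosine breakdown. It stood between 1937 and 4329 CPM in controls (median 3269) and between 919 and 1801 CPM in NASH (median 1203). The mean went from 3198 ± 813 to 1306 ± 367 CPM (mean ± SD of 6), and it fell by 1.29 on the log2 scale (SE 0.21, edgeR adjusted p = 0.000233). This enzyme varied most between animals, with an SD of 0.40 on the log2 scale in controls and in NASH alike, and control 31 was its lowest control.

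*HPD*, hydroxyphenylpyruvate dioxygenase, which forms homogentisate, was between 2667 and 3348 CPM in controls (median 2771) and between 1224 and 2009 CPM in NASH (median 1526), and it fell by 0.91 on the log2 scale (SE 0.12, edgeR adjusted p = 3.62e-05). *HGD*, homogentisate dioxygenase, whose inherited loss causes alkaptonuria, was between 790.4 and 1029.8 CPM in controls (median 859.9) and between 361 and 606 CPM in NASH (median 459), and it fell by 0.92 on the log2 scale (SE 0.14, edgeR adjusted p = 0.000147). These middle enzymes of the route thus had 53.1% and 52.7% of their control means left in NASH.

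*FAH*, fumarylacetoacetate hydrolase, whose inherited loss causes hereditary tyrosinaemia, had the largest fall of the set. It was between 322 and 435 CPM in controls (median 388) and between 125 and 162 CPM in NASH (median 129). The mean went from 385 ± 42.1 to 137 ± 16.2 CPM (mean ± SD of 6), and it fell by 1.49 on the log2 scale (SE 0.10, edgeR adjusted p = 1.84e-07). Its lowest control was 1.99 times its highest NASH animal, the largest such ratio of the 9.

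*TDO2*, tryptophan dioxygenase, the hepatic enzyme that commits tryptophan to the kynurenine route, was between 559.5 and 756 CPM in controls (median 585) and between 195 and 312 CPM in NASH (median 250.1), and it fell by 1.3 on the log2 scale (SE 0.13, edgeR adjusted p = 3.89e-06). Control 5 was the highest control at 756 CPM, and the other controls lay between 559.5 and 623 CPM. Without control 5 the log2 fold change of *TDO2* was −1.23, and it remained past the threshold.

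*KMO*, kynurenine monooxygenase of the outer mitochondrial membrane, was between 212 and 312 CPM in controls (median 281) and between 78.7 and 124 CPM in NASH (median 93.8), and it fell by 1.47 on the log2 scale (SE 0.13, edgeR adjusted p = 1.77e-06). *KYNU*, kynureninase, was between 186 and 261 CPM in controls (median 212) and between 54.4 and 104 CPM in NASH (median 77.9), and it fell by 1.47 on the log2 scale (SE 0.14, edgeR adjusted p = 2.97e-06). Both enzymes of this stretch were left at 36.2% and 36.1% of their control means. They are also made by macrophages, whose markers *CD68* and *AIF1* rose, by 0.69 and 0.77 on the log2 scale, while *MARCO* fell by 1.27.

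*AADAT*, the mitochondrial aminotransferase that turns kynurenine into kynurenic acid, fell least. It was between 127 and 184 CPM in controls (median 144) and between 68.5 and 104 CPM in NASH (median 82.3), and it fell by 0.79 on the log2 scale (SE 0.11, edgeR adjusted p = 6.15e-05). *HAAO*, hydroxyanthranilate dioxygenase, which stands before the branch to NAD, was between 473 and 661 CPM in controls (median 605) and between 214 and 329 CPM in NASH (median 269), and it fell by 1.14 on the log2 scale (SE 0.11, edgeR adjusted p = 2.96e-06).

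When edgeR tested for a change beyond an absolute log2 fold change of 1, *FAH*, *TDO2*, *KMO* and *KYNU* were called lower, 4 of the 9, against 2.08% of all genes. Scaling by library size alone, without TMM factors, put the median of all genes at 0.48 on the log2 scale. The 9 enzymes were still all called lower under that scaling, where 7.66% of all genes were lower and 63.9% higher, with log2 fold changes from −1.02 for *FAH* to −0.31 for *AADAT* and a median of −0.82 (−1.3 relative to that of all genes).

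Ratios of counts within an animal do not depend on library scaling, and 8 ratios between enzymes of the same route were compared by two-sided exact permutation tests with Benjamini-Hochberg adjustment over the 8. The *FAH* to *HGD* ratio of counts ran from 0.364 to 0.550 in controls and from 0.231 to 0.361 in NASH, and every NASH value was below every control. It fell by 0.53 on the log2 scale (SD 0.27 in controls and 0.25 in NASH, n = 6 each, exact p = 0.00216, adjusted p = 0.0173). The *AADAT* to *KMO* ratio of counts ran from 0.452 to 0.697 in controls and from 0.647 to 1.06 in NASH. It rose by 0.69 on the log2 scale, or 1.61-fold (SD 0.25 in each group, n = 6 each, exact p = 0.00433, adjusted p = 0.0173), and *KMO* was the enzyme of this pair with the larger fall. For both ratios the difference between medians, −0.45 and 0.74, had an adjusted exact p of 0.0519.

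The other 6 ratios did not pass the threshold. That of *HPD* to *TAT* differed by 0.37 (adjusted exact p = 0.211). Without control 31, whose *TAT* was low, the difference was 0.55 (adjusted exact p = 0.0231). The other 11 of 12 tests that each left out 1 animal did not pass (adjusted exact p up to 0.357). *HAAO* to *KMO* and *HAAO* to *KYNU* differed by 0.33 and 0.34 (adjusted exact p = 0.204 for each). *KMO* to *TDO2* differed by −0.16 (adjusted exact p = 0.283). The ratios of *HGD* to *HPD* and of *KYNU* to *KMO* differed by −0.03 and −0.01 (adjusted exact p = 0.877 for each), with SDs of 0.20 in both groups for the former and of 0.12 in controls and 0.23 in NASH for the latter. A p-value above the threshold does not show that these ratios were equal.

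**Figure D2:**
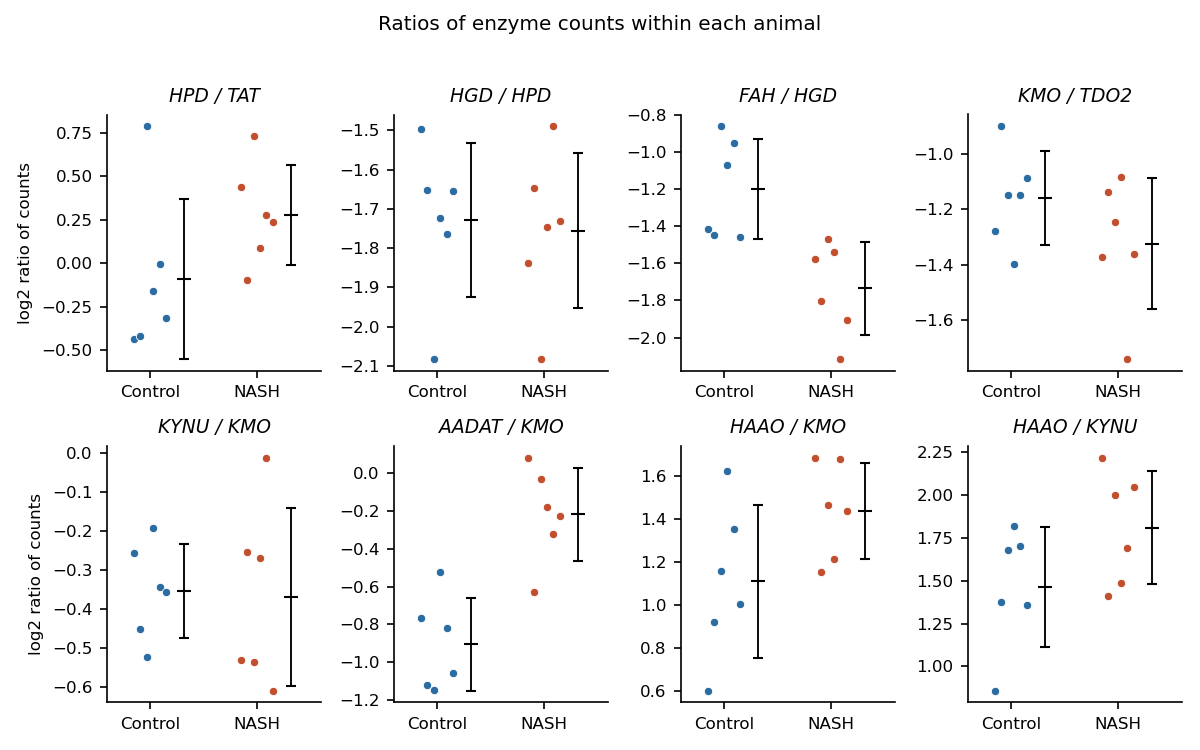
Log2 ratio of the counts of 2 enzymes in the same animal, for 8 pairs, in the 6 controls (blue) and 6 NASH animals (orange); points are animals, bars are mean ± SD, and each panel has its own axis range, which does not start at 0. FAH / HGD is the pair whose groups do not overlap, AADAT / KMO is higher in NASH with a small overlap, HGD / HPD covers nearly the same range in both groups, and KYNU / KMO is spread more widely in NASH (SD 0.23) than in controls (SD 0.12).

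Because hepatocyte markers were lower in NASH too, each enzyme was compared, in a test added after the data had been seen, with the mean log2 count of the 7 hepatocyte markers of the same animal (*ALB*, *APOA1*, *APOB*, *TTR*, *SERPINA1*, *FGB* and *ASGR1*, whose log2 fold changes ran from −2.20 for *TTR* to −0.18 for *ASGR1*). Relative to these markers *KYNU*, *FAH*, *KMO* and *TDO2* were lower in NASH by 0.57, 0.56, 0.55 and 0.39 on the log2 scale (two-sided exact permutation tests, adjusted p over 9 = 0.0195, 0.00972, 0.013 and 0.00972). For *FAH* and *TDO2* the groups did not overlap. *TAT* and *HAAO* differed by −0.37 and −0.22 without passing the threshold (adjusted exact p = 0.195 and 0.0857). Without control 31 *TAT* differed by −0.52 (adjusted exact p = 0.0468), and without control 5 *HAAO* differed by −0.29 (adjusted exact p = 0.0244). For each enzyme the other 11 of 12 tests that left out 1 animal did not pass (adjusted exact p up to 0.377 and 0.171). *HPD*, *HGD* and *AADAT* differed from the markers by 0.0013, −0.03 and 0.14 (adjusted exact p = 0.976, 0.891 and 0.462).

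The choice of marker mattered to these differences. With *ALB* left out of the markers, *FAH*, *TDO2*, *KMO* and *KYNU* stayed lower past the threshold, and *HAAO* passed it too (−0.29, adjusted exact p = 0.0273). *ALB* alone had a log2 fold change of −1.29, close to the median of the 9 enzymes. Set against *ALB* alone, none of the enzymes was lower past the threshold: *FAH*, *KMO* and *KYNU* differed by −0.18, −0.17 and −0.18 (adjusted exact p = 0.244, 0.161 and 0.244) and *TDO2* by −0.0035 (adjusted exact p = 0.963). *HPD*, *HGD* and *AADAT* were then higher by 0.38, 0.36 and 0.52 (adjusted exact p = 0.013 for each). The order of the enzymes among themselves is not affected by the marker.

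**Figure D3:**
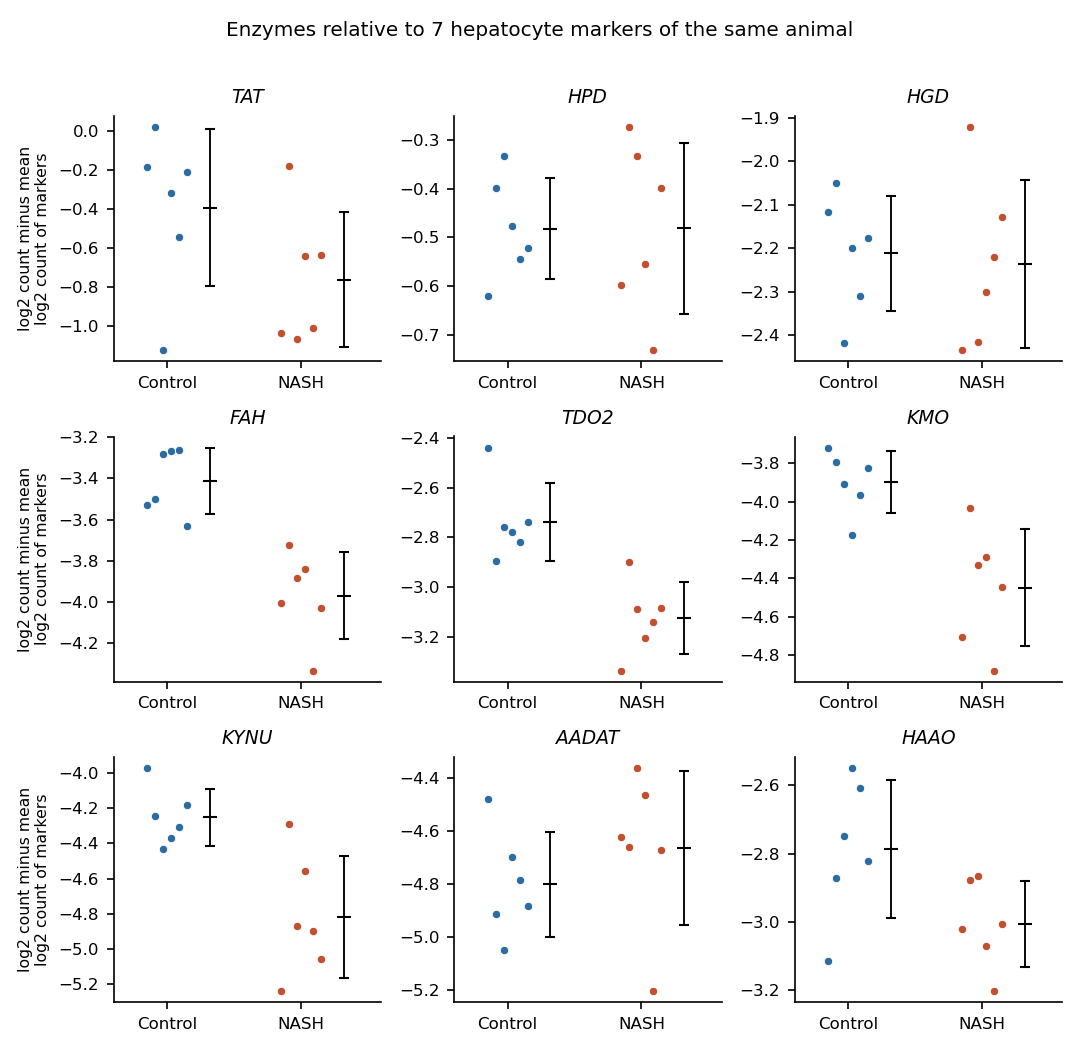
Log2 count of each enzyme minus the mean log2 count of 7 hepatocyte markers in the same animal, in the 6 controls (blue) and 6 NASH animals (orange); points are animals, bars are mean ± SD, and axis ranges differ between panels and do not start at 0. The groups are apart in FAH and TDO2, while HPD, HGD and AADAT have overlapping groups with mean differences of 0.0013, −0.03 and 0.14.

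Animals with NASH differed among themselves in the set as a whole. In NASH 65 all 9 enzymes were above their group means, by 0.31 on average on the log2 scale, and in NASH 9 this held for 8 of 9, by 0.22. In NASH 2 none was above, with an average deviation of −0.23, and in NASH 20 and NASH 11 1 enzyme each was, with −0.19 and −0.12. NASH 65 also had the highest summed hepatocyte markers of its group, 64622 CPM, the lowest summed stellate cell markers, 1002 CPM, and the lowest TMM factor, 1.12, whereas NASH 2 had the highest factor, 1.24. The summed erythroid markers of NASH 65 were at 3275 CPM and those of NASH 41 at 4524 CPM, against 426 to 725 CPM in the other 4 NASH animals. The mean log2 level of the hepatocyte markers was also below its group mean in NASH 2, NASH 11 and NASH 20, by an average deviation of −0.06, −0.15 and −0.25. In NASH 9 the markers deviated from their group mean by −0.07 on the log2 scale, and in NASH 41 by 0.24, where the enzymes deviated by 0.0031 on average. The part of these values in the spread was not tested. Among controls the average deviations were smaller, from −0.07 to 0.10. On rlog values from which each group's mean had been subtracted, the 36 pairs of enzymes had a median Pearson's r of 0.34 over the 12 animals, from −0.18 for *KYNU* with *HAAO* to 0.81 for *TAT* with *HGD*. *HGD* with *TDO2* (0.78) and *KMO* with *KYNU* (0.74) came next. The values of both genes of a pair come from the same libraries, which differed in depth and composition between animals, so these correlations are given as a description.

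By the same measure, the gene on another count row that followed each enzyme most closely was *SDS* for *TAT* (r = 0.92), *AMBP* for *HPD* (0.93), *ASS1* for *HGD* (0.91), *AQP5* for *FAH* (0.95) and *CDO1* for *TDO2* (0.91). For *KMO*, *KYNU*, *AADAT* and *HAAO* these were *NSUN6* (0.92), *CNKSR3* (0.93), *CCL20* (0.92) and *PMM1* (0.92). With group means removed, r does not describe the change between groups. *SDS*, *AMBP*, *ASS1*, *AQP5*, *CDO1* and *PMM1* had log2 fold changes of −3.17, −0.94, −0.86, −1.62, −0.88 and −0.30. Those of *NSUN6* and *CNKSR3* were −0.13 and 0.04, and *CCL20* rose by 3.62 while *AADAT* fell. *SDS*, *ASS1* and *CDO1* encode further amino acid enzymes, serine dehydratase, argininosuccinate synthetase and cysteine dioxygenase. Each is the highest of 11896 values over 12 animals.

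The remaining phenylalanine and tyrosine genes were taken from a list of 13, of which 12 were in the table. Of these, 8 were lower in NASH and 1 higher, where 26.0% and 27.9% of all genes were, and the median of the list was −0.80 on the log2 scale. *GCH1*, the committed step in the synthesis of the cofactor tetrahydrobiopterin, had the largest fall of the list. It was between 95.1 and 132 CPM in controls, above all NASH animals at 20.6 to 52.4 CPM (log2 fold change −1.49, SE 0.19, edgeR adjusted p = 2.82e-05). Of the enzymes that make or recycle this cofactor, *QDPR*, *SPR* and *PCBD1* fell by 1.20, 0.82 and 0.77 (edgeR adjusted p between 1.94e-06 and 0.000113). *PTS* and *PCBD2* had log2 fold changes of −0.25 and 0.03 and missed the threshold (edgeR adjusted p = 0.0772 and 0.786). *GCHFR*, which holds *GCH1* in check, fell by 0.99. *GSTZ1*, the isomerase that stands between *HGD* and *FAH*, fell by 1.18 (SE 0.08, edgeR adjusted p = 1.75e-07), from 418 ± 19.4 to 184 ± 19.5 CPM (SD, n = 6 each). *DDC*, the aromatic amino acid decarboxylase, fell by 1.19 (edgeR adjusted p = 1.42e-06). The cytosolic aspartate aminotransferase *GOT1* fell by 0.79 (edgeR adjusted p = 0.00795), and the mitochondrial *GOT2* missed the threshold (−0.22, edgeR adjusted p = 0.0617). The 1 called riser, *IL4I1*, a phenylalanine oxidase of immune cells, had a log2 fold change of 0.76, but it shared its count row with *NUP62*, a nuclear pore gene, so the rise cannot be assigned to either.

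Of 13 further tryptophan and NAD genes, 12 were in the table, 10 lower in NASH and 1 higher (all genes, 26.0% and 27.9%), and their median was −0.71 on the log2 scale. *AFMID*, which follows *TDO2*, fell from 212 ± 8.91 to 115 ± 16.3 CPM (mean ± SD of 6), with a log2 fold change of −0.88 (SE 0.09, edgeR adjusted p = 4.21e-06). *ACMSD*, which directs the product of *HAAO* towards oxidation and away from NAD, had the largest fall of the list. It was between 33.5 and 65.4 CPM in controls and between 10.5 and 18.2 CPM in NASH (log2 fold change −1.75, SE 0.19, edgeR adjusted p = 8.1e-06). *QPRT*, which takes the other branch towards NAD, fell by 0.64 (SE 0.12, edgeR adjusted p = 0.000625). *ALDH8A1*, *GCDH* and *DHTKD1* of the oxidative branch fell by 1.44, 0.69 and 0.71, where *DHTKD1* shared its count row with *SEC61A2*. Of the other kynurenine aminotransferases, *KYAT1* fell by 0.71, on a row shared with *AL441992.3*, and *KYAT3* fell by 0.66. *NADSYN1*, the last step of NAD synthesis, fell by 0.73, and *NMNAT1* had a log2 fold change of −0.01 (edgeR adjusted p = 0.932).

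In both alternative entry enzymes of the tryptophan route the groups overlapped. *IDO1*, the inducible immune counterpart of *TDO2*, had 4 to 46 counts in controls and 32 to 151 in NASH, which was between 0.286 and 2.11 CPM and between 0.997 and 3.85 CPM, with overlap. Its log2 fold change was 1.0 (SE 0.39, edgeR adjusted p = 0.0458), and the call was lost in 9 of 12 fits that each left out 1 animal (edgeR adjusted p between 0.0126 and 0.0943) and with limma-voom (adjusted p = 0.0953). *IDO2* had overlapping groups at 42.3 to 85.6 CPM in controls and 21.7 to 58.2 CPM in NASH, and it fell by 0.72 (SE 0.22, edgeR adjusted p = 0.0167).

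**Figure D4:**
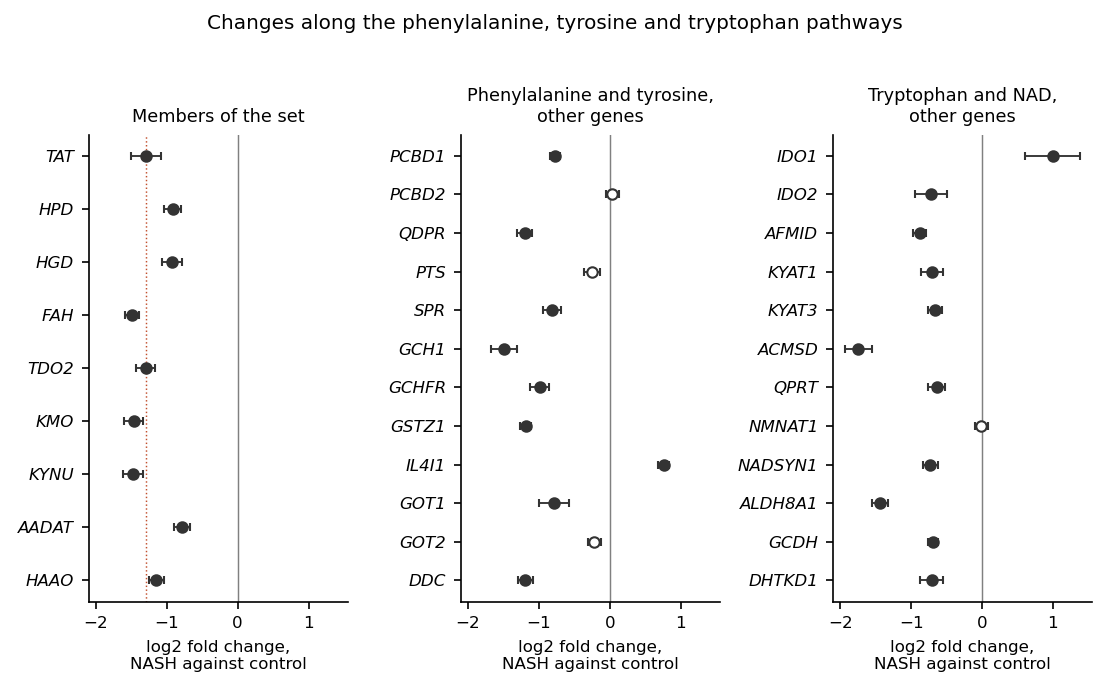
Log2 fold change of NASH against control from edgeR for the 9 enzymes and for the other listed genes of both routes; bars are ± SE, filled points have an adjusted p-value under 0.05, open points do not, and the dotted line marks the median of the 9 enzymes (−1.29). Nearly all points lie left of 0, and IDO1 and IL4I1, the latter on a shared count row, are the called genes on the right.

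With library size alone, 7 of the 12 phenylalanine and tyrosine genes were called lower and 3 higher, and of the 12 tryptophan and NAD genes 4 were lower and 2 higher, where 7.66% of all genes were lower and 63.9% higher. Under it *IDO2*, *QPRT*, *KYAT1*, *KYAT3*, *NADSYN1*, *DHTKD1* and *GOT1* kept a negative log2 fold change and were no longer called (edgeR adjusted p between 0.0596 and 0.298). *GOT2*, *NMNAT1* and *PCBD2* were then called higher, *PCBD2* by 0.51 on the log2 scale (edgeR adjusted p = 0.000167). *GOT2* was called lower with DESeq2 (adjusted p = 0.0463) and in edgeR fits without control 56, NASH 9 or NASH 20 (adjusted p = 0.0207, 0.0311 and 0.0433). The other 9 of 12 fits that each left out 1 animal did not call *GOT2* (edgeR adjusted p up to 0.128).

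Of 8 transporters of aromatic amino acids or of their breakdown products, 6 had a row, of which 2 were lower and 2 higher, near the shares of 26.0% and 27.9% over all genes. *SLC43A1* had the largest fall (log2 fold change −1.60, SE 0.19, edgeR adjusted p = 2.14e-05), on a count row shared with *TIMM10*. *SLC16A10*, an exporter of aromatic amino acids, fell by 1.26 (SE 0.37, edgeR adjusted p = 0.0124), and with library size alone the call was lost (log2 fold change −0.81, edgeR adjusted p = 0.0637). *SLC7A5*, the large neutral amino acid exchanger that also carries kynurenine, rose from between 1.35 and 9.87 CPM to between 8.62 and 21.3 CPM (log2 fold change 1.73, SE 0.45, edgeR adjusted p = 0.00584). *SLC7A8*, its relative, rose by 1.0 without overlap (edgeR adjusted p = 0.00164). Their partner chain *SLC3A2* had a log2 fold change of −0.19 and *SLC25A21*, a mitochondrial carrier of the oxidative branch, one of −0.20, and neither passed the threshold (edgeR adjusted p = 0.341 and 0.379).

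Of 10 liver transcription factors listed as regulators of such enzymes, 5 had a row, of which 2 were lower and none was higher, against 26.0% lower and 27.9% higher over all genes. *FOXA2* fell by 1.98 (SE 0.36, edgeR adjusted p = 0.000501), from between 5.38 and 15.6 CPM to between 1.37 and 5.26 CPM. *FOXA3* fell by 0.52, and with library size alone its log2 fold change was −0.038 and was not called (edgeR adjusted p = 0.747). *CEBPB*, *ONECUT1* and *PPARA* had log2 fold changes of −0.12, −0.49 and 0.16 (edgeR adjusted p = 0.874, 0.0607 and 0.665). *ONECUT1* was called lower with DESeq2 (adjusted p = 0.0422), with limma-voom (adjusted p = 0.0494) and in edgeR fits without control 32, NASH 9 or NASH 20 (adjusted p = 0.0372, 0.0257 and 0.0431). The other 9 of 12 fits that each left out 1 animal did not call *ONECUT1* (edgeR adjusted p up to 0.138). *NR3C1*, *HNF4A*, *FOXA1*, *CEBPA* and *CEBPD* were not analysed here.

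Kynurenine and kynurenic acid are ligands of the aryl hydrocarbon receptor, and 7 of 8 genes of that receptor and its targets were in the table, 5 lower and 1 higher (26.0% and 27.9% over all genes). *CYP1A2*, a target and an abundant hepatocyte enzyme, was between 696 and 1189.9 CPM in controls and between 38.3 and 123 CPM in NASH (log2 fold change −3.55, SE 0.31, edgeR adjusted p = 1.46e-06). *CYP1A1* fell by 1.37 and *NQO1* by 0.74, whereas *TIPARP*, another target, rose by 0.92 without overlap (SE 0.12, edgeR adjusted p = 4.53e-05). *CYP1B1* missed the threshold (log2 fold change 1.45, edgeR adjusted p = 0.114), and without control 31, which had 12.1 CPM, it was higher by 2.67 (edgeR adjusted p = 0.003). The other 11 of 12 fits that each left out 1 animal did not call *CYP1B1* (edgeR adjusted p up to 0.184). *CYP1B1* was also called higher with limma-voom (2.77, adjusted p = 0.00706), with limma on rlog values (0.85, adjusted p = 0.0118) and with library size alone (1.90, edgeR adjusted p = 0.037). The receptor *AHR*, on a row shared with *AC019117.4*, fell by 0.41 (edgeR adjusted p = 0.0344) and its partner *ARNT* by 0.45 (edgeR adjusted p = 0.000117). With library size alone these log2 fold changes were 0.068 and 0.026, that of *NQO1* was −0.27 and no longer called (edgeR adjusted p = 0.0934), and the call of *AHR* was also lost in 9 of 12 fits that each left out 1 animal (edgeR adjusted p between 0.00366 and 0.0671).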

How the data were processed

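Per the labels, liver mRNA libraries came from 6 control and 6 NASH guinea pigs, grouped by sample title. The authors trimmed reads with Trimmomatic 0.38.0, mapped them to Cavpor3.0 with HISAT2 2.1.0, discarded reads that mapped more than once, quantified loci with StringTie 1.3.6 and deposited raw counts per locus. The authors also deposited log2 values, made with the rlog transformation of DESeq2, for human orthologue symbols with a total of at least 200 counts. The count table holds 39061 loci without symbols, so symbols and rows were paired through a repeat of the rlog transformation, which recovered the deposited log2 values within 8e-07 for all 11896 symbols (11031 rows; for 2 symbols the row had an identical twin). No coordinates or sequences are given, because the annotation used here (7 of the 9 enzymes matched by symbol) is of another build.

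Counts were tested with edgeR 4.0.16 in R 4.3.3 (TMM, robust glmQLFit, glmQLFTest, whole-table library sizes, adjusted p under 0.05), and the SE is the absolute log2 fold change over the square root of F. Ratios used counts plus 0.5. Alternatives were RLE, upper-quartile and no factors, DESeq2 1.42.0, limma-voom and limma on rlog values (3.58.1), a threshold of 0.01, a required log2 fold change beyond 1, filterByExpr, all rows holding at least 1 count, each animal left out, an offset of 5 and medians for ratios, and, added after seeing the data, each row once and other hepatocyte references. Between any 2 animals of a group, the variance of counts was 43.4 times that of counting error or more. Python 3.11.15 with matplotlib 3.10.9 drew the figures.

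The enzymes, lists and tests were chosen with earlier results of these data known. The rule for named genes covers the 9 enzymes, the largest called rise and fall of each list, *GSTZ1*, *AFMID*, *IDO1*, *IDO2*, *ACMSD* and *QPRT*, and the gene most correlated with each enzyme; other list and marker genes were named after their values were seen. Some listed genes are not reported here and were left out of the lists.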

Additional observations from a re-analysis of the deposited data

Results flagged for a closer look

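A sample was looked at again where its gap to the nearest of the other 5 animals of its group was large for the group's range (Dixon's criterion at 95%, on log2 values). This was met in 6 of 118 groups of 6 values examined, where chance gives about 5.9. Control 5 was high in *TDO2*, at 756 CPM against 559.5 to 623 CPM in the other controls, and low in *PPARA* (26.2 against 112 to 139 CPM), *DHTKD1* (88.6 against 162 to 198 CPM) and *SLC7A8* (2.72 against 5.6 to 8.23 CPM). Without control 5 the log2 fold changes of *TDO2*, *DHTKD1* and *SLC7A8* were −1.23, −0.83 and 0.86, all still called, and that of *PPARA* was −0.04. *KYAT1* was at 41.2 CPM in control 45, against 25.4 to 30.2 CPM in the other controls. The log2 ratio of *HPD* to *TAT* was 0.789 in control 31 and between −0.438 and −0.00433 in the other controls.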

How the results depend on the processing

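All 9 enzymes kept a negative log2 fold change under every alternative run, and all 9 were called in each, with 9 called for every animal left out, except where the change had to exceed 1 on the log2 scale, which called 4. That test called 1100 genes (247 lower and 853 higher). Every row with at least 1 count gave 10813 calls (4828 lower, 5985 higher) and filterByExpr 9823 (4734 lower, 5089 higher), where more rows were tested. With library size alone 911 genes were lower and 7603 higher. Under it the lists had a median log2 fold change of −0.33 (phenylalanine and tyrosine, 3 genes higher), −0.24 (tryptophan and NAD, 4 lower and 2 higher), 0.28 (transporters, 1 lower), −0.011 (regulators, 1 lower) and 0.026 (aryl hydrocarbon receptor, 2 lower and 2 higher), beside 0.48 for all genes, and *GOT2*, *NMNAT1*, *AHR* and *ARNT* were at 0.26, 0.47, 0.068 and 0.026. Between medians, the log2 ratios of *FAH* to *HGD* and *AADAT* to *KMO* differed by −0.45 and 0.74 and missed the threshold. With each animal left out, the ratio of *HPD* to *TAT* differed by 0.28 to 0.55, *TAT* against the hepatocyte markers by −0.52 to −0.29 and *HAAO* by −0.29 to −0.17, passing the threshold without control 31 for *TAT* and without control 5 for *HAAO*. Against the markers without *ALB*, *HAAO* differed by −0.29, past the threshold. Against *ALB* alone, *HPD*, *HGD* and *AADAT* were higher by 0.38, 0.36 and 0.52, and *FAH*, *TDO2*, *KMO* and *KYNU* differed by −0.18, −0.0035, −0.17 and −0.18. Causes of these shifts were not tested. No paired analysis was possible because the animal numbers of the groups are not shared.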
